A study of Rattus norvegicus with 15 samples.

Results

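The heat shock protein and DnaJ genes of the rat retina were followed through 5 conditions of light and time of day. They were taken as every probe set of the array whose single gene symbol starts with *Hsp* or with *Dnaja*, *Dnajb* or *Dnajc* and names a family member, leaving out *Hspg2* (a proteoglycan of basement membranes) and the *Hspbp*- and *Hspbap*-type binding proteins. The probe set with the highest mean over the 15 arrays stood for its gene. This gave 62 genes of the 14218 with a probe set of their own, 23 of them *Hsp* genes and 39 *Dnaj* genes. A list of cellular compartments placed 27 in the cytosol, 12 in the endoplasmic reticulum and 8 in mitochondria, and left 15 as other or not assigned. 6 further probe sets carry a matching symbol together with others and are not analysed here, which leaves *Hspa8*, *Hsp90aa1* and *Hspa1b* without a value. The probe set of *Hspa1a* may also read the near-identical *Hspa1b*, so its values are uncertain between the pair.

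Retinas came from adult male Long-Evans rats, all kept in darkness overnight. One group was taken at 7 am (0 ZT dark, the control), one in darkness at 10 am (3 ZT dark), one at 10 am after 3 hours of light at 1000 lux (3 ZT light), one in darkness at 1 pm (6 ZT dark) and one at 1 pm after light at 1000 lux (6 ZT light). For the last group the sample titles and the study's methods give 6 hours of light, while the source labels give 3 hours. Each group has 3 replicas on Affymetrix RAT230_2 arrays, and nothing in the sources used here says whether a replica is 1 rat or a pool, so p-values measure the spread between these samples.

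Heat shock proteins are chaperones: they bind unfolded stretches of other proteins and help them to fold, cross membranes or be degraded. Hsp70 proteins (*Hspa* genes) work in cycles of ATP that are started by DnaJ or J proteins (*Dnaj* genes), which bring the client, and reset by exchange factors such as Hsp110 (*Hsph1*). Hsp90 proteins take over late folding steps, Hsp60 with Hsp10 (*Hspd1*, *Hspe1*) encloses clients in mitochondria, and small heat shock proteins (*Hspb* genes) hold aggregating proteins without ATP. In the cytosol the heat shock factors raise chaperone transcripts through heat shock elements, and in the endoplasmic reticulum the unfolded protein response does so through its own promoter elements. Photoreceptors renew their outer segments daily and make large amounts of membrane protein, so both systems are studied in retinal light damage.

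The letters of both kinds of element occur in promoters of these genes. Promoters of RefSeq (build GRCr8, 250 bases before to 50 after the start of the gene) were found for 51 of the 62 genes and searched on both strands. The endoplasmic stress element was searched as CCAAT, 9 bases of any kind, then CCACG. It occurred in 3 of the 51 promoters (5.88%), those of *Hspa5*, *Hsp90b1* (at 2 places) and *Dnajc3*, against 22 of 33469 promoters in RefSeq (0.0657%). All 3 genes encode proteins of the endoplasmic reticulum. They are shown here because their light effects at 6 ZT are described together further on, with the matched bases in capitals:
Hspa5 (chr3:38452766-38453015, plus strand): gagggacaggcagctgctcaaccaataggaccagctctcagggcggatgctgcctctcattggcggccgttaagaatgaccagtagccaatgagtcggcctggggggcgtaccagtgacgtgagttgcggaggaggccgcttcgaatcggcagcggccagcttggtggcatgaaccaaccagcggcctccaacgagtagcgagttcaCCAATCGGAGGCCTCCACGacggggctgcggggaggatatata
Hsp90b1 (chr7:23012431-23012489, minus strand): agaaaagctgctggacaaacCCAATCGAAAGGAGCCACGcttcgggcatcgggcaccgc
Hsp90b1 (chr7:23012327-23012385, minus strand): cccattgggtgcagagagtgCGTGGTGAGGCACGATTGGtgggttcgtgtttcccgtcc
Dnajc3 (chr15:102432514-102432572, plus strand): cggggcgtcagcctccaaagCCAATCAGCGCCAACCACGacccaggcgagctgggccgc

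The sequences are written 5′ to 3′ on the strand of the gene, and the second match of *Hsp90b1* lies on the opposite strand, so that CCAAT is read there as ATTGG. The heat shock element was searched as 3 alternating units, GAA, any 2 bases, TTC, any 2 bases, GAA, or the same starting from TTC. It occurred in 4 of the 51 promoters (7.84%), those of *Hspd1*, *Hspe1*, *Hsph1* and *Dnaja1*, against 267 of 33469 promoters (0.798%). *Hspd1* and *Hspe1* start close to each other on opposite strands, and the same bases of chromosome 9 form the match in both. Those of *Hspe1* and *Hsph1* are shown as the mitochondrial and the cytosolic example:
Hspe1 (chr9:64084242-64084299, plus strand): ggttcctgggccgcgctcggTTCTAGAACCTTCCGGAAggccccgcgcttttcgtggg
Hsph1 (chr12:10427312-10427364, plus strand): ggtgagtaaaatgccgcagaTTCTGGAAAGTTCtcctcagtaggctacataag

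The match of *Dnaja1* lies after the start of the gene. A match is only a match of letters, and its absence from a window, as for *Hspa1a* and *Dnajb1*, says only that these letters are not in that window.

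Array values are log2 intensities of probe sets, and a difference of 1 is a factor of 2. The median of an array differed between replica numbers (8.28 to 8.32, 8.58 to 8.68 and 8.75 to 8.81 for replicas 1, 2 and 3), and the replica number was a term of the fit. 1 array stood apart: on 3 ZT light replica 2 the 3′ probe set of *Actb* exceeded the 5′ one by 2.40 (0.71 to 2.10 elsewhere), a usual sign of RNA quality. The 62 genes deviated there from the mean of their replica number with an SD of 0.36, and 18 of them lay more than 0.3 below it. The main light results at 3 ZT are therefore also given without this array, and its part in them beyond these values was not tested. On 0 ZT dark replica 1, a control array of 4 comparisons, the *Actb* difference was 2.10, and the next highest was 1.37. On 6 ZT dark replica 2 the SD was 0.28, and it was at most 0.17 on the 13 arrays other than this one and 3 ZT light replica 2. For 36 of the 62 genes, arrays of a replica number held exactly equal values, such as 7.28 for *Hspa12b* on 4 arrays of replica 1. The retina's own rod genes were bright throughout, with a mean of 5 rod markers between 14.52 and 14.79 on every array.

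No heat shock protein or DnaJ gene passed an adjusted p of 0.05 in any of the 7 comparisons fitted with limma. The lowest adjusted p among the 62 was 0.355, for *Hspb3*, a small heat shock protein, in 6 ZT light against 0 ZT dark. The same test called 0.00322% of the 31042 probe sets in 3 ZT light against 0 ZT dark and 0.00322% in 3 ZT light against 3 ZT dark, and 0.0% in each of the other 5 comparisons. The rule of the study's methods, a ratio to the 0 ZT dark array of the same replica number above 1.6 or below 0.7 in all 3 replicas, was met by none of the 62 genes in any condition. It was met by 0.0161% of all probe sets in 3 ZT dark, 0.132% in 3 ZT light, 0.351% in 6 ZT dark and 0.142% in 6 ZT light. In no condition did a member exceed a ratio of 1.6 in as many as 2 of the 3 replicas. *Dnajb6* was below 0.7 in 2 of the 3 replicas in 6 ZT light, the only member to be so in any condition.

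At an unadjusted p under 0.05, 6 of the 62 genes passed in 3 ZT light against 0 ZT dark (1 higher, 5 lower; 7.68% of all probe sets did so) and 4 in 6 ZT light against 0 ZT dark (1 higher, 3 lower; 6.18%). In darkness the numbers were 0 of 62 at 3 ZT (1.25%) and 6 of 62 at 6 ZT, all lower (8.73%). These 4 comparisons share the 0 ZT dark arrays. Light against darkness at the same hour gave 5 of 62 at 3 ZT (1 higher, 4 lower; 4.59%) and 3 of 62 at 6 ZT (2 higher, 1 lower; 8.53%), and the difference between these light effects gave 4 of 62 (3 higher, 1 lower; 5.95%). In the same order the members' shares were 9.68%, 6.45%, 0.00%, 9.68%, 8.06%, 4.84% and 6.45%, within about 4 percentage points of those of all probe sets. Single arrays move these counts. Without 3 ZT light replica 2 there were 1 of 62 for light at 3 ZT, 8 in 6 ZT light against 0 ZT dark and 12 in 6 ZT dark against 0 ZT dark. Without 6 ZT dark replica 2 the last count was 1. With each of the 15 arrays left out in turn the 7 counts, in the same order, ran from 3 to 13, 4 to 8, 0 to 2, 1 to 12, 1 to 9, 2 to 7 and 0 to 6.

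The size of what could be missed on the probe set that stood for each gene is given by the intervals. They do not cover a gene's other probe sets. In 6 ZT light against 6 ZT dark the 95% interval lay within a factor of 1.5 either way for 54 of the 62 genes. It did so for 24384 of all 31042 probe sets. For none of the 62 did it reach a factor of 2, beside 1296 of all probe sets. In 3 ZT light against 3 ZT dark it lay within 1.5 for 50 of the 62 and reached a factor of 2 for 3. Over all probe sets these counts were 24333 and 1430. The median half-width of the intervals of the 62 genes was 0.26 on the log2 scale in both comparisons. The median log2 difference of the 62 was −0.07 at 3 ZT (24 higher, 38 lower) and 0.01 at 6 ZT (36 higher, 26 lower), beside 0.00 and −0.01 for all probe sets. Without 3 ZT light replica 2 the median at 3 ZT was 0.00, with 30 of 62 higher.

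**Figure D1:**
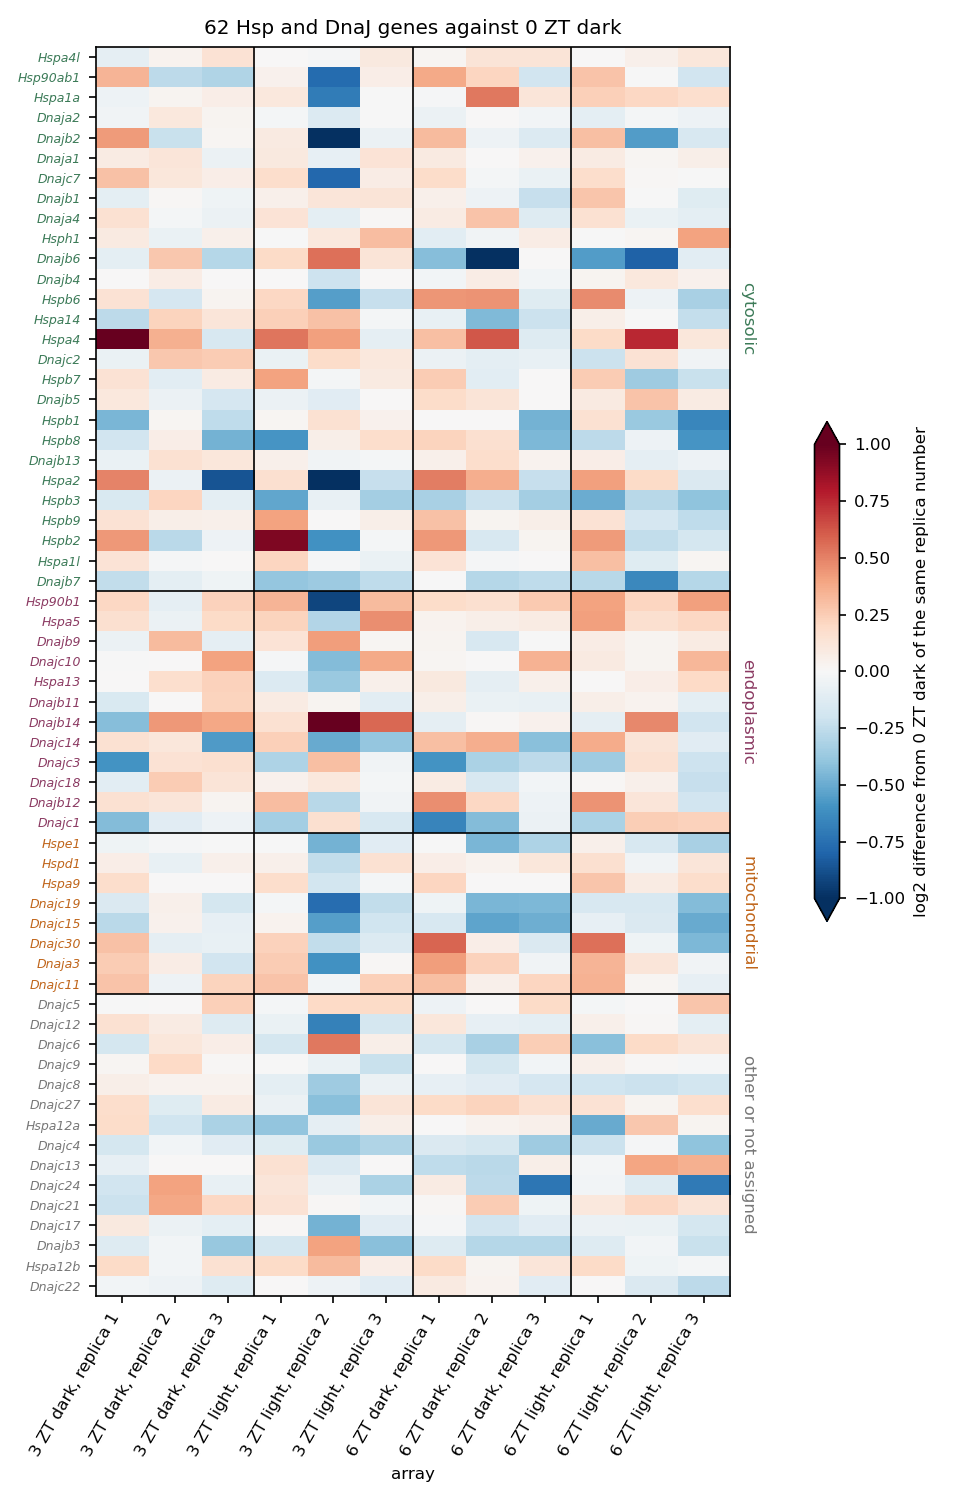
Log2 difference of each of the 62 genes (rows, grouped by compartment and ordered by mean level) from the 0 ZT dark array of the same replica number, for the 12 other arrays (columns); red is higher and blue lower, and the colour scale ends at 1 in both directions. The column of 3 ZT light replica 2 is the most strongly coloured, with deep blue for *Hspa2*, *Dnajb2* and *Hsp90b1* and deep red for *Dnajb14*.

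Among the cytosolic genes none of the heat-inducible ones passed the test. *Hspa1a*, the stress-inducible Hsp70, read 13.55, 13.31 and 13.35 at 0 ZT dark, 13.50, 13.34 and 13.41 at 3 ZT dark, 13.66, 12.61 and 13.34 at 3 ZT light, 13.54, 13.84 and 13.47 at 6 ZT dark, and 13.79, 13.51 and 13.52 at 6 ZT light, in the order of replicas 1 to 3. The lowest value, 12.61, came from 3 ZT light replica 2 and the highest, 13.84, from 6 ZT dark replica 2, and the groups overlap. The difference between light and darkness was −0.21 (95% interval −0.64 to 0.21, limma adjusted p = 0.895) at 3 ZT and −0.01 (95% interval −0.43 to 0.42, limma adjusted p = 0.995) at 6 ZT. The former was 0.08 without 3 ZT light replica 2.

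*Dnajb1*, the J protein that starts the Hsp70 cycle in the heat shock response, read 12.70, 12.65 and 12.78 at 0 ZT dark, 12.60, 12.66 and 12.74 at 3 ZT dark, 12.75, 12.77 and 12.91 at 3 ZT light, 12.75, 12.60 and 12.55 at 6 ZT dark, and 12.98, 12.65 and 12.66 at 6 ZT light. Each light value was above the dark value of the same replica number and hour, by 0.15, 0.11 and 0.17 at 3 ZT and by 0.23, 0.05 and 0.11 at 6 ZT. The fitted differences of 0.14 (95% interval −0.07 to 0.35, limma adjusted p = 0.895) and 0.13 (95% interval −0.08 to 0.34, limma adjusted p = 0.7) did not pass the test, and the second, dimmer probe set of the gene had differences of the opposite sign, −0.21 and −0.12. *Hsph1*, the Hsp110 exchange factor whose promoter is shown above, read 12.55, 12.49 and 12.41 at 3 ZT dark, 12.45, 12.66 and 12.67 at 3 ZT light, 12.35, 12.52 and 12.43 at 6 ZT dark, and 12.45, 12.57 and 12.76 at 6 ZT light. Light exceeded darkness in 2 of 3 replicas at 3 ZT and in 3 of 3 at 6 ZT, with a fitted difference of 0.16 (95% interval −0.04 to 0.36, limma adjusted p = 0.63) at 6 ZT. At 3 ZT its second probe set differed by −0.40 in light.

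*Hsp90ab1*, the constitutive cytosolic Hsp90, read 13.09, 13.62 and 13.77 at 0 ZT dark, 13.43, 13.35 and 13.47 at 3 ZT dark, 13.13, 12.85 and 13.83 at 3 ZT light, 13.47, 13.83 and 13.58 at 6 ZT dark, and 13.37, 13.61 and 13.58 at 6 ZT light. At 3 ZT its replicas went opposite ways. The fitted light effects were −0.15 (95% interval −0.58 to 0.29) at 3 ZT and −0.10 (95% interval −0.54 to 0.33) at 6 ZT. Its second, dimmer probe set differed in light by 0.255 at 3 ZT, the opposite sign, and by −0.594 at 6 ZT, outside the interval of the first. The J proteins *Dnaja1*, *Dnaja2* and *Dnaja4*, partners of cytosolic Hsp70, and *Hspa4l*, an Hsp110 relative, varied little on the probe sets shown. Their whole range over 15 arrays was 0.48, 0.35, 0.40 and 0.31. The second, dimmer probe set of *Dnaja4* differed from 0 ZT dark by 0.76 in 6 ZT dark and 0.55 in 6 ZT light. The one shown differed by 0.08 and −0.01. *Dnajb6*, a J protein that keeps aggregating proteins soluble, had a range of 2.02, from 11.09 on 6 ZT dark replica 2 to 13.11 on 3 ZT light replica 2. Against 0 ZT dark it had the lowest fitted difference of the 62 genes in both 6 ZT dark (−0.63) and 6 ZT light (−0.49). Its ratios to 0 ZT dark in replicas 1 to 3 were 0.75, 0.36 and 1.00 in 6 ZT dark and 0.68, 0.57 and 0.93 in 6 ZT light. *Dnajb2*, the J protein of neurons, read 12.01 on 3 ZT light replica 2, and 12.81 to 13.47 elsewhere. *Hspa2*, an Hsp70 known from testis, had the widest range, 2.19, and its lowest value, 6.70, was on the same array.

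**Figure D2:**
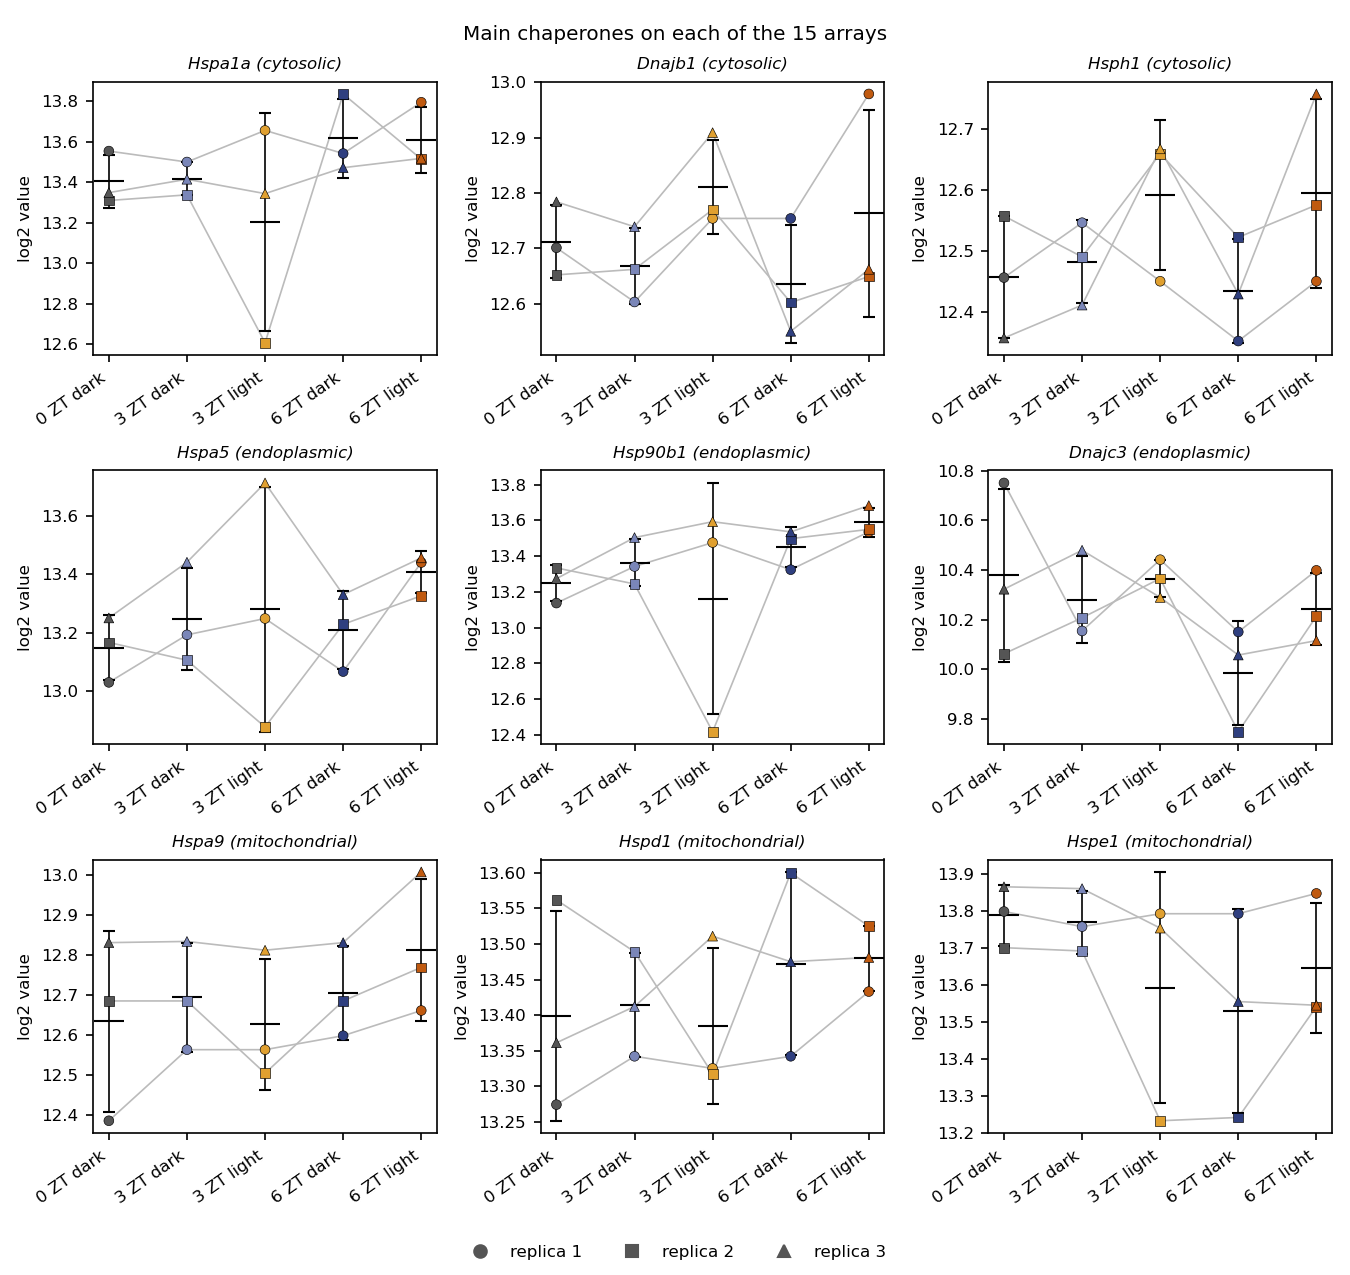
Log2 values of 9 main chaperones on each array by condition; symbols mark replicas 1, 2 and 3, grey lines join arrays of a replica number, and black bars give the mean and SD of the 3 arrays (each panel has its own vertical axis). *Hspa1a*, *Hsp90b1* and *Hspe1* show the low value of 3 ZT light replica 2, and *Hspa5* and *Hsp90b1* lie higher in 6 ZT light than in 6 ZT dark in each replica.

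Of all 62 genes, a small heat shock protein gave the lowest p. *Hspb3*, known from muscle, where it pairs with *Hspb2*, read 7.80, 7.67 and 7.99 at 0 ZT dark, 7.65, 7.88 and 7.90 at 3 ZT dark, 7.28, 7.60 and 7.66 at 3 ZT light, 7.48, 7.46 and 7.66 at 6 ZT dark, and 7.31, 7.39 and 7.59 at 6 ZT light. The 0 ZT and 3 ZT dark arrays held the higher values, from 7.65 to 7.99, and the 6 ZT light arrays the lower ones, from 7.31 to 7.59, without overlap. Against 0 ZT dark it was lower in 3 ZT light, with a difference of −0.31 (95% interval −0.50 to −0.12, unadjusted p = 0.00401, limma adjusted p = 0.504). In 6 ZT light it was lower with a difference of −0.39 (95% interval −0.58 to −0.20, unadjusted p = 0.000835, limma adjusted p = 0.355). In 6 ZT dark it was lower with a difference of −0.29 (95% interval −0.48 to −0.10, unadjusted p = 0.00614, limma adjusted p = 0.495). All these ratios share the 0 ZT dark arrays. Against darkness at the same hour the difference was −0.30 (95% interval −0.49 to −0.11, unadjusted p = 0.00516, limma adjusted p = 0.895) at 3 ZT, and without 3 ZT light replica 2 it was −0.37. At 6 ZT it was −0.10 (95% interval −0.29 to 0.09, limma adjusted p = 0.724), with −0.18, −0.07 and −0.06 in replicas 1 to 3.

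*Hspb1*, the stress-inducible Hsp27, read 8.94, 9.41 and 9.32 at 3 ZT dark, 9.41, 9.54 and 9.62 at 3 ZT light, 9.40, 9.39 and 9.10 at 6 ZT dark, and 9.55, 9.02 and 8.92 at 6 ZT light. Light was above darkness in 3 of 3 replicas at 3 ZT, with a difference of 0.30 (95% interval −0.09 to 0.69, limma adjusted p = 0.895), and in 1 of 3 at 6 ZT, with −0.13 (95% interval −0.53 to 0.26, limma adjusted p = 0.827). The difference between these effects was −0.43 (95% interval −0.99 to 0.12, limma adjusted p = 0.776). *Hspb9* differed between 6 ZT light and 6 ZT dark by −0.15, −0.19 and −0.31 in replicas 1 to 3, a fitted difference of −0.22 (95% interval −0.41 to −0.02, unadjusted p = 0.0311, limma adjusted p = 0.56). For *Hspb7* the light effect at 6 ZT minus that at 3 ZT was −0.28 (95% interval −0.60 to 0.04, limma adjusted p = 0.776), with the same sign in all 3 replicas. The dim probe set of *Dnajb7*, between 4.53 and 5.46 on all arrays, was lower than at 0 ZT dark in 3 ZT light, with −0.33 (95% interval −0.57 to −0.10, unadjusted p = 0.00901, limma adjusted p = 0.561). In 6 ZT light it was lower, with −0.40 (95% interval −0.64 to −0.17, unadjusted p = 0.0029, limma adjusted p = 0.443).

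**Figure D3:**
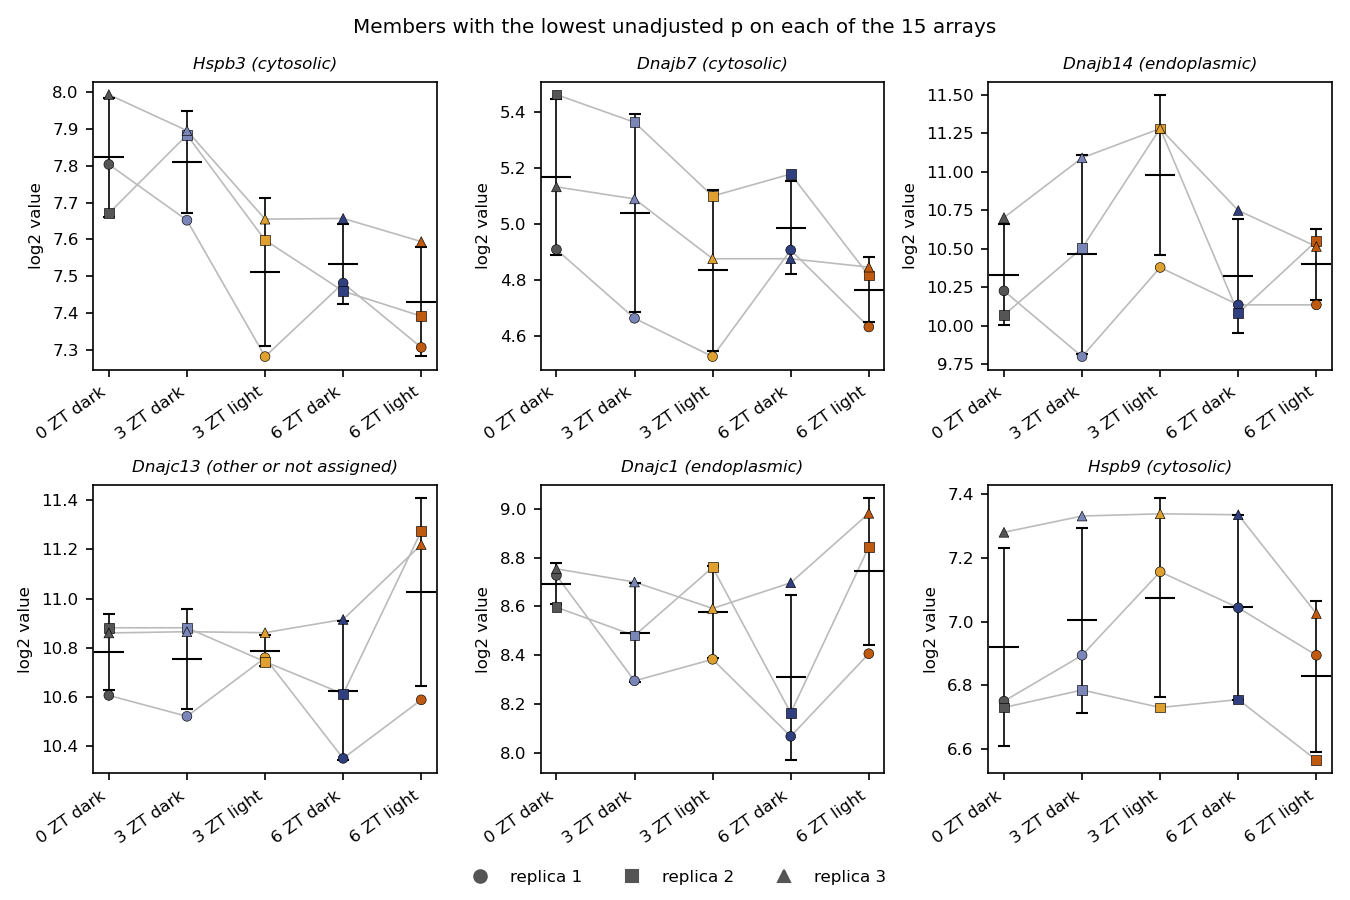
Log2 values on each array of 6 genes with low unadjusted p in at least 1 comparison, by condition; symbols mark replicas 1, 2 and 3, grey lines join arrays of a replica number, and black bars give the mean and SD of the 3 arrays. *Hspb3* does not overlap between 0 ZT dark and 6 ZT light, and *Dnajc13* and *Dnajc1* are higher in 6 ZT light than in 6 ZT dark in each replica.

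In the endoplasmic reticulum the light values at 6 ZT were mostly above the dark ones by small amounts. *Hspa5* (BiP), the Hsp70 of this compartment and the usual marker of its stress, read 13.03, 13.17 and 13.25 at 0 ZT dark, 13.19, 13.11 and 13.44 at 3 ZT dark, 13.25, 12.88 and 13.71 at 3 ZT light, 13.07, 13.23 and 13.33 at 6 ZT dark, and 13.44, 13.33 and 13.46 at 6 ZT light. Each 6 ZT light value exceeded the 6 ZT dark value of its replica number, by 0.37, 0.10 and 0.13, and the 6 ZT light values were 13.33 to 13.46 against 13.07 to 13.33 in darkness. The fitted difference was 0.20 (95% interval −0.09 to 0.49, limma adjusted p = 0.668). At 3 ZT it was 0.03 (95% interval −0.26 to 0.32, limma adjusted p = 0.979) with all arrays and 0.21 without 3 ZT light replica 2, and replicas 1 and 3 were higher in light while replica 2 was lower.

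*Hsp90b1* (GRP94), the Hsp90 of the endoplasmic reticulum, read 13.14, 13.33 and 13.27 at 0 ZT dark, 13.34, 13.24 and 13.50 at 3 ZT dark, 13.48, 12.42 and 13.59 at 3 ZT light, 13.32, 13.50 and 13.54 at 6 ZT dark, and 13.54, 13.55 and 13.68 at 6 ZT light. Its 6 ZT light values were above the 6 ZT dark values of the same replica number by 0.21, 0.05 and 0.15, with a fitted difference of 0.14 (95% interval −0.34 to 0.62, limma adjusted p = 0.862). At 3 ZT the differences by replica were 0.13, −0.83 and 0.09, so that only replica 2 was lower in light. The fitted difference of −0.20 (95% interval −0.68 to 0.28) became 0.17 without that array. *Dnajc3* (P58IPK), a J protein of BiP that also restrains the stress kinase PERK, read 10.75, 10.06 and 10.32 at 0 ZT dark, 10.15, 9.75 and 10.06 at 6 ZT dark, and 10.40, 10.21 and 10.12 at 6 ZT light. It was lower in 6 ZT dark than at 0 ZT dark, with −0.39 (95% interval −0.71 to −0.08, unadjusted p = 0.0187, limma adjusted p = 0.525). In light at 6 ZT it was higher than in darkness, with 0.26 (95% interval −0.06 to 0.57, limma adjusted p = 0.621). At 6 ZT light exceeded darkness for all 3 genes whose promoters hold the endoplasmic stress element, with a median of 0.20, beside 28 of 48 and 0.02 for the other genes with a promoter. The 3 are among the 12 endoplasmic genes, of which 10 were higher (median 0.07), while the 48 span all compartments. Element and compartment were not separated here. Of the 4 genes with a heat shock element 4 were higher, with a median of 0.06, beside 27 of 47 and 0.03 for those without it. At 3 ZT the numbers were 2 of 4 and −0.01, beside 19 of 47 and −0.07, for the heat shock element, and 2 of 3 and 0.03, beside 19 of 48 and −0.06, for the endoplasmic one.

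*Dnajc1* (ERdj1), a J protein at the ribosomes of the endoplasmic reticulum, read 8.73, 8.60 and 8.75 at 0 ZT dark, 8.30, 8.48 and 8.70 at 3 ZT dark, 8.07, 8.16 and 8.70 at 6 ZT dark, and 8.41, 8.84 and 8.98 at 6 ZT light. The 6 ZT light values lay above the 6 ZT dark value of the same replica number by 0.34, 0.68 and 0.28, a fitted difference of 0.43 (95% interval 0.14 to 0.73, unadjusted p = 0.00788, limma adjusted p = 0.508). In 6 ZT dark it was lower than at 0 ZT dark, with −0.38 (95% interval −0.68 to −0.09, unadjusted p = 0.0154, limma adjusted p = 0.523), and both comparisons use the 6 ZT dark arrays. Its 2 other probe sets were dimmer, and the lowest difference among the 3 was −0.13 for 6 ZT light against 6 ZT dark. For 6 ZT dark against 0 ZT dark the highest difference among the 3 was 0.16, the opposite sign. *Dnajb14*, a J protein of the endoplasmic membrane that faces the cytosol, read 10.23, 10.07 and 10.70 at 0 ZT dark, 9.80, 10.51 and 11.09 at 3 ZT dark, and 10.38, 11.28 and 11.28 at 3 ZT light. It was higher in 3 ZT light than at 0 ZT dark, with 0.65 (95% interval 0.19 to 1.11, unadjusted p = 0.0102, limma adjusted p = 0.566), and without 3 ZT light replica 2 the difference was 0.46 (95% interval −0.02 to 0.93). Against 3 ZT dark it was higher, with 0.52 (95% interval 0.06 to 0.97, unadjusted p = 0.0311, limma adjusted p = 0.895). The latter was 0.33 without that array, and the lowest difference among the gene's 3 probe sets was −0.01.

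*Hspa13*, a small Hsp70 relative of microsomes, differed between 3 ZT light and 3 ZT dark by −0.14, −0.54 and −0.18 in replicas 1 to 3, a fitted difference of −0.28 (95% interval −0.49 to −0.08, unadjusted p = 0.0109, limma adjusted p = 0.895). Its light effect at 6 ZT minus that at 3 ZT was 0.35 (95% interval 0.06 to 0.64, unadjusted p = 0.0214, limma adjusted p = 0.776), and without 3 ZT light replica 2 this difference was 0.26. *Dnajb9* (ERdj4), a J protein that delivers clients of BiP to degradation, was higher in light in 3 of 3 replicas at both hours, by 0.20, 0.10 and 0.11 at 3 ZT and 0.04, 0.19 and 0.08 at 6 ZT. *Dnajb11* (ERdj3) ranged from 10.78 to 11.24 over the 15 arrays, and at 6 ZT its light values of 10.99, 10.89 and 10.93 differed from the dark ones by 0.00, 0.10 and −0.02.

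The mitochondrial genes include the chaperones of protein import and of the matrix. *Hspa9* (mortalin), the Hsp70 that pulls precursors into the matrix, read 12.38, 12.69 and 12.83 at 0 ZT dark, 12.56, 12.69 and 12.83 at 3 ZT dark, 12.56, 12.50 and 12.81 at 3 ZT light, 12.60, 12.69 and 12.83 at 6 ZT dark, and 12.66, 12.77 and 13.01 at 6 ZT light. It was higher in 6 ZT light than at 0 ZT dark in 3 of 3 replicas, with 0.18 (95% interval 0.02 to 0.34, unadjusted p = 0.0292, limma adjusted p = 0.77). Against 6 ZT dark the difference was 0.11 (95% interval −0.05 to 0.27, limma adjusted p = 0.667). Among the gene's 4 probe sets the 6 ZT light differences ran from −0.22 to 0.43 against 0 ZT dark and from −0.18 to 0.11 against 6 ZT dark. On the probe set shown, the values of replica 2 in 0 ZT, 3 ZT and 6 ZT dark are equal, as are those of replica 1 in 3 ZT dark and 3 ZT light. *Hspd1* (Hsp60) varied by 0.33 over all 15 arrays, and its light effects were −0.03 (95% interval −0.20 to 0.14) at 3 ZT and 0.01 (95% interval −0.16 to 0.18) at 6 ZT.

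*Hspe1* (Hsp10), its cap, read 13.80, 13.70 and 13.87 at 0 ZT dark, 13.76, 13.69 and 13.86 at 3 ZT dark, 13.79, 13.23 and 13.75 at 3 ZT light, 13.79, 13.24 and 13.55 at 6 ZT dark, and 13.85, 13.54 and 13.54 at 6 ZT light. The low values of 13.23 and 13.24 came from replica 2 of 3 ZT light and of 6 ZT dark, and light and dark overlap at both hours. In light it differed by −0.18 (95% interval −0.43 to 0.08, limma adjusted p = 0.895) at 3 ZT and by 0.12 (95% interval −0.14 to 0.37, limma adjusted p = 0.77) at 6 ZT, while *Hspd1*, which starts from the same stretch of DNA, read 13.32 and 13.60 on those arrays, the lowest and the highest value of its replica 2. *Dnajc15*, a J protein of the import motor, differed between 6 ZT dark and 0 ZT dark by −0.16, −0.53 and −0.48, a fitted difference of −0.39 (95% interval −0.73 to −0.05, unadjusted p = 0.0292, limma adjusted p = 0.542). *Dnajc19*, of the same motor, read 11.43 on 3 ZT light replica 2 and 11.73 to 12.61 elsewhere. *Dnaja3*, the matrix J protein, read 9.56 on that array and 10.00 to 10.85 elsewhere.

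The compartments are set side by side as medians of their genes, with no test between them. At 3 ZT the median difference between light and darkness was −0.01 for the 27 cytosolic genes (12 higher), −0.04 for the 12 of the endoplasmic reticulum (5 higher) and −0.11 for the 8 of mitochondria (1 higher). By replica number the mitochondrial median was 0.00, −0.32 and −0.04, the endoplasmic one 0.14, −0.19 and −0.04, and the cytosolic one 0.01, −0.09 and 0.01, so that the second replica was lowest in all 3 compartments. Without 3 ZT light replica 2 the medians, in the order cytosol, endoplasmic reticulum and mitochondria, were 0.06, 0.02 and 0.01, with 16 of 27, 8 of 12 and 4 of 8 higher. Of the single light effects at 3 ZT given above, those of *Dnajb1*, *Hsph1*, *Hspb1*, *Hspd1*, *Hspe1* and *Hspa13* were then 0.14, 0.10, 0.30, 0.06, −0.07 and −0.19.

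At 6 ZT the medians were −0.03 in the cytosol (11 of 27 higher), 0.07 in the endoplasmic reticulum (10 of 12 higher) and 0.04 in mitochondria (5 of 8 higher), beside −0.01 for all probe sets. The endoplasmic median was above 0 in each replica (0.06, 0.13 and 0.07), and with each array left out in turn it ran from 0.04 to 0.10, with 8 to 12 of 12 genes higher. It was 0.01 after quantile or cyclic loess normalization. The cytosolic median was below 0 in each replica (−0.01, −0.09 and −0.01). A light effect with the same sign in all 3 replicas was seen for 16 of the 62 genes at 3 ZT (6 higher, 10 lower; 17.1% of all probe sets) and for 23 at 6 ZT (11 higher, 12 lower; 30.8%). Of the 11 that were higher at 6 ZT, 5 belong to the endoplasmic reticulum (*Hsp90b1*, *Hspa5*, *Dnajb9*, *Dnajc3* and *Dnajc1*), 3 to the cytosol (*Dnajb1*, *Hsph1* and *Dnajb4*), 1 to mitochondria (*Hspa9*) and 2 to neither (*Dnajc9* and *Dnajc13*). Of the 12 that were lower, 8 belong to the cytosol, 1 to the endoplasmic reticulum, 1 to mitochondria and 2 to neither. Among all 31042 probe sets 5346 were higher and 4200 lower in all 3 replicas at 6 ZT.

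**Figure D4:**
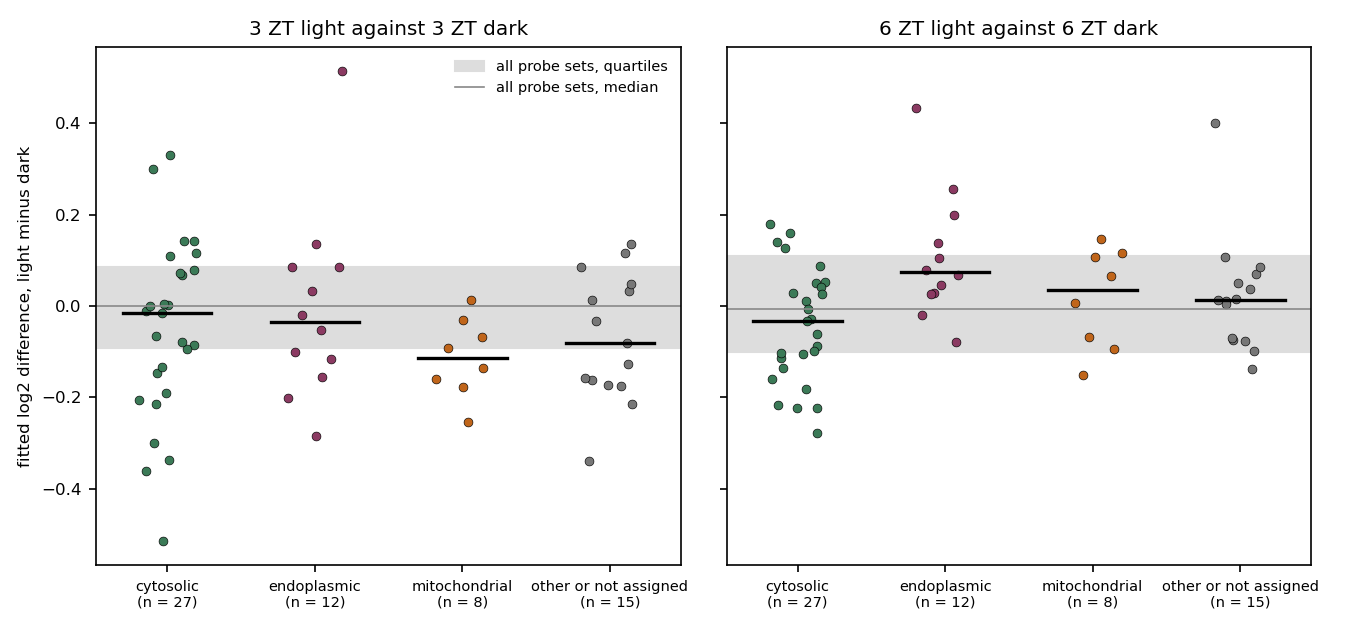
Fitted log2 difference between light and darkness of each of the 62 genes (points) by compartment at 3 ZT (left) and 6 ZT (right); black bars are medians, and the grey band and line give the quartiles and median of all 31042 probe sets. Most points lie within or near the grey band, and the endoplasmic median is 0.07 at 6 ZT and the mitochondrial one −0.11 at 3 ZT.

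**Figure D5:**
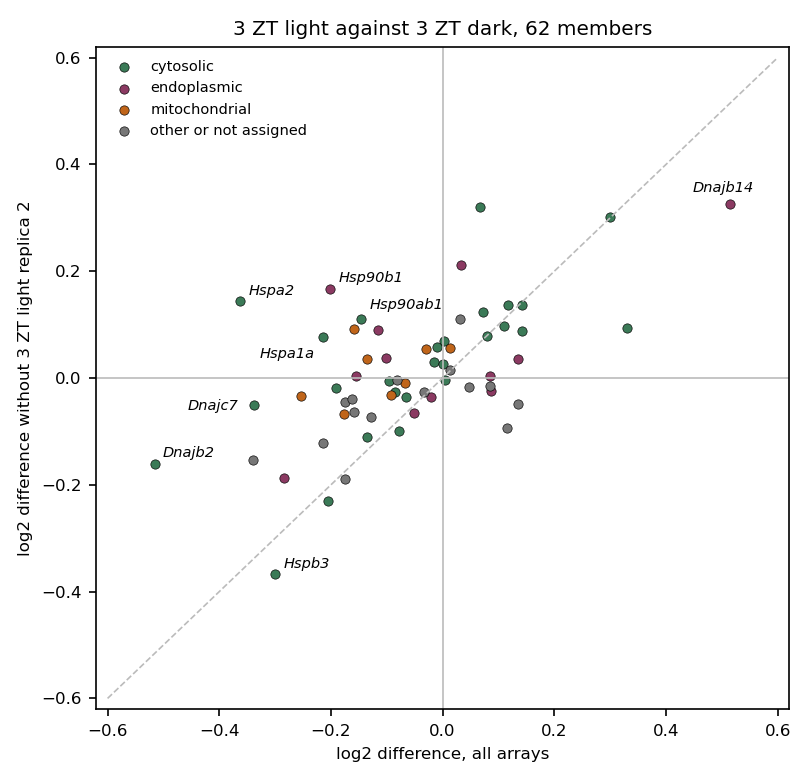
Log2 difference of the 62 genes in 3 ZT light against 3 ZT dark with all arrays (horizontal axis) and without 3 ZT light replica 2 (vertical axis), coloured by compartment; the dashed line marks equal values. *Hspa2*, *Hsp90b1*, *Hsp90ab1* and *Hspa1a* change from below to above 0, while *Hspb3* and *Dnajb14* keep their direction.

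Of the genes outside these compartments, *Dnajc13* (RME-8), a J protein of endosomes, had the lowest p of the light comparison at 6 ZT. It read 10.52, 10.88 and 10.87 at 3 ZT dark, 10.76, 10.74 and 10.86 at 3 ZT light, 10.35, 10.61 and 10.91 at 6 ZT dark, and 10.59, 11.27 and 11.22 at 6 ZT light. The 6 ZT light value was higher in each replica, by 0.24, 0.66 and 0.30, a fitted difference of 0.40 (95% interval 0.14 to 0.66, unadjusted p = 0.00617, limma adjusted p = 0.508). *Dnajc8*, found with the spliceosome, was lower than at 0 ZT dark in 6 ZT light, with −0.20 (95% interval −0.36 to −0.03, unadjusted p = 0.0221, limma adjusted p = 0.721). At 3 ZT it was lower in light than in darkness, with −0.21 (95% interval −0.38 to −0.05, unadjusted p = 0.0151, limma adjusted p = 0.895). This was, without 3 ZT light replica 2, −0.12 (95% interval −0.26 to 0.01). *Dnajc12*, a partner of aromatic amino acid hydroxylases, differed between 3 ZT light and 3 ZT dark by −0.21, −0.76 and −0.05, a fitted difference of −0.34 (95% interval −0.61 to −0.07, unadjusted p = 0.0192, limma adjusted p = 0.895) that was −0.15 without replica 2. *Dnajc4* was lower than at 0 ZT dark in 3 ZT light, with −0.26 (95% interval −0.48 to −0.05, unadjusted p = 0.0199, limma adjusted p = 0.601), and without that array it was −0.17 (95% interval −0.38 to 0.04).

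*Dnajc9*, a chaperone of histones, read 12.86, 13.01 and 12.86 at 3 ZT dark, 12.84, 12.74 and 12.62 at 3 ZT light, 12.84, 12.63 and 12.82 at 6 ZT dark, and 12.90, 12.82 and 12.83 at 6 ZT light. In light it was lower at 3 ZT in 3 of 3 replicas and higher at 6 ZT in 3 of 3, with a difference between the light effects of 0.26 (95% interval 0.01 to 0.51, unadjusted p = 0.0434, limma adjusted p = 0.776). *Dnajc5*, the cysteine string protein of synaptic vesicles, ranged over 0.43 on the probe set shown and held equal values on 4 arrays of replica 2. Among its 3 probe sets the highest difference from 0 ZT dark was 0.51 in 6 ZT dark and 0.49 in 6 ZT light. The one shown differed by 0.05 and 0.08. *Dnajc6* (auxilin), which strips clathrin from vesicles, read 13.60 on 3 ZT light replica 2 and 12.44 to 13.27 elsewhere.

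The regulators and partners of these chaperones were counted from fixed lists chosen with these data known. *Hsf1*, the main heat shock factor, read 10.19, 10.10 and 10.74 in 3 ZT dark and 10.34, 10.20 and 10.38 in 3 ZT light. At 6 ZT it read 10.35, 10.61 and 10.54 in darkness and 10.53, 10.31 and 10.63 in light, and light and darkness overlapped at both hours. *Hsf2*, a second factor, differed in light by 0.11 (95% interval −0.24 to 0.47) at 3 ZT and 0.19 (−0.17 to 0.54) at 6 ZT. *Hsf4*, a factor known for its role in lens, read 8.72, 8.79 and 8.78 in 6 ZT dark and 8.17, 8.23 and 8.36 in 6 ZT light, without overlap. Its light effect at 6 ZT was −0.51 (95% interval −0.97 to −0.05, unadjusted p = 0.0332, limma adjusted p = 0.562), in the comparison where the lens markers given below were also lower. At 3 ZT it was −0.10 (−0.56 to 0.36). Of 22 measured cochaperones of Hsp70 and Hsp90, 9 were higher at 3 ZT and 12 at 6 ZT, with medians of −0.04 and 0.02. At 3 ZT 15 were higher, with a median of 0.03, without 3 ZT light replica 2. Of the 8 subunits of the cytosolic chaperonin CCT, which folds actin and tubulin, 2 were higher at 3 ZT (median −0.21) and 7 at 6 ZT (median 0.04). The 3 ZT median was −0.03 without 3 ZT light replica 2. Of 13 genes of mitochondrial import and proteolysis, 5 were higher at 3 ZT and 11 at 6 ZT, with medians of −0.06 and 0.01, and 4 at 3 ZT without that array, with −0.03. None of the genes in these lists passed an adjusted p of 0.05 with limma in the light comparisons.

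Of 24 measured genes of the unfolded protein response outside the Hsp and DnaJ families, 5 were above their dark level in light at 3 ZT (median −0.08), or 12 of 24 (median 0.00) without 3 ZT light replica 2, and 20 were higher in light at 6 ZT than in darkness (median 0.12). The light effect at 6 ZT minus that at 3 ZT was above 0 for 24 of 24, with a median of 0.19, and above 0 for 20 of 24, with a median of 0.13, without 3 ZT light replica 2. Over all probe sets the median of this difference was −0.01, with 48.8% above 0. By replica number the list's median was 0.15, 0.30 and 0.16. No gene of the list passed the adjusted p with limma, and at an unadjusted p under 0.05 there were 2 of 24 at 6 ZT, beside 8.53% of all probe sets. Both were higher, *Edem1* (0.46), which hands misfolded glycoproteins to degradation, and *Pdia4* (0.295), a disulfide isomerase. The transcription factor *Ddit3* (CHOP) differed in light at 3 ZT by −0.07, −1.38 and −0.05 in replicas 1 to 3, so that replica 2 carried the fitted −0.50 (adjusted p = 0.895 with limma). The endoplasmic stress element was also found in the promoters of *Creld2*, *Canx*, *Xbp1* and *Calr*, 4 of the 20 of this list with a promoter.

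The alpha crystallins *Cryaa* and *Cryab* belong to the small heat shock proteins by family and are abundant in lens. *Cryaa* read 14.79, 15.19 and 15.35 in 6 ZT dark and 14.80, 15.09 and 12.44 in 6 ZT light, and *Cryab* 14.36, 15.17 and 15.05 in darkness and 14.52, 15.04 and 13.06 in light. Both differed mainly through 6 ZT light replica 3, by −2.91 and −1.99 there against −0.13 to 0.16 in replicas 1 and 2. On average the markers of lens were lowest on the same array, but in replicas 1 and 2 they were lower in light as well. All 9 measured had negative light effects at 6 ZT (median −1.56), with medians of −1.51, −0.94 and −2.14 in replicas 1 to 3. Their mean was 8.32 to 11.13 in 6 ZT light and 11.18 to 12.12 in 6 ZT dark, with 9.80 to 11.90 in the other groups. At 3 ZT all 9 had positive light effects (median 0.54) and all 6 markers of Müller glia negative ones (median −0.22), and without 3 ZT light replica 2 these were 9 of 9 (median 1.21) and 5 of 6 (median −0.11). All 8 measured markers of the pigment epithelium were higher in light at 6 ZT (median 0.69), with means of 11.66 to 12.58 in 6 ZT light, 10.96 to 11.78 in 6 ZT dark and 11.63 to 12.17 in the other groups. At that hour the 5 rod markers differed by a median of 0.07 and those of Müller glia by 0.03. The part of these tissues in the differences of the chaperone genes was not tested, and in whole retina fewer cells of a type and less RNA per cell cannot be told apart.

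Different probe sets of the same gene often disagreed at this size of effect. Of the 25 genes with several probe sets, all had the same sign in 11 for light at 3 ZT and in 12 for light at 6 ZT. The median span between the highest and lowest difference of a gene's probe sets was 0.28 and 0.08 in these comparisons.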

How the data were processed

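RNA of whole rat retina was hybridised to 15 Affymetrix RAT230_2 arrays, 3 replicas for each of 5 conditions. The deposited log2 values were made by the authors with RMA, which corrects background, normalizes and summarises the probes of a probe set. The labels give 6 µg of RNA and Trizol, which differs from the study's methods. Precision is limited by having 3 arrays a condition. Of 31099 probe sets, 57 controls were left out and 31042 tested.

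The members and gene lists were chosen with earlier results of these data known. Differences were fitted over all arrays with limma 3.58.1 (R 4.3.3, statmod 1.5.0), with condition and replica number as terms, for 7 comparisons, and p-values were adjusted by Benjamini-Hochberg over all probe sets at 0.05. The script was tested on simulated data. Tables and figures used Python 3.11.15, pandas 2.3.3 and matplotlib 3.10.9. Arrays of the same replica number deviated together: deviations from the condition means correlated at 0.24 to 0.80 in 30 pairs of the same number and at −0.54 to 0.23 in 60 other pairs. Deviations cancel out within a condition, which pushes pairs of other numbers toward negative values, and array medians also differed by replica number. These correlations therefore do not show that the samples themselves were matched. Arrays correlated at 0.960 to 0.996, and no pair was identical.

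Named genes were up to 4 per direction and comparison with the lowest p, those past a threshold, and a fixed list of main chaperones. *Dnajb2*, *Dnajb6*, *Dnajc19*, *Dnaja2*, *Dnaja4*, *Hspa2* and the unfolded protein response genes named singly lie outside that rule in whole or part and were chosen after their values were seen. Alternatives were no replica block, only the conditions compared, quantile and cyclic loess normalization, array quality weights, the mean of a gene's probe sets, no dim probe sets, other symbols, another ratio rule, and leaving out arrays.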

Additional observations from a re-analysis of the deposited data

Results flagged for a closer look

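The light effect on *Dnajc9*, a chaperone of histones, differed in direction between the hours. In each of the 3 replicas it was lower in light at 3 ZT and higher in light at 6 ZT, and the difference between the fitted effects was 0.2583 on the log2 scale (unadjusted p = 0.0434, limma adjusted p = 0.776). The gene was picked out of the 62 for this pattern, so these p-values are not a separate test of it. The share of all probe sets with such a pattern was not counted. The difference did not pass the adjusted test. Without 3 ZT light replica 2 the difference was 0.27 (95% interval −0.0007 to 0.55, unadjusted p = 0.0504, limma adjusted p = 0.860).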

How the results depend on the processing

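Array quality weights were the only setting under which limma called any of the 62 genes at an adjusted p of 0.05. With them 1 member was called lower in 6 ZT light against 0 ZT dark (*Hspb3*, −0.32, adjusted p = 0.0494), and in 6 ZT light against 6 ZT dark 3 were called higher (*Dnajc13*, *Dnajc1* and *Hsph1*) and 2 lower (*Hspb9* and *Dnajc22*). The same setting called 2.18% and 7.44% of all probe sets there, and its weights ran from 0.160 for 3 ZT light replica 2 to 7.45 for 6 ZT light replica 3. Without the replicate block 0 members were called in every comparison, and for light at 3 ZT none of them had an unadjusted p below 0.05 (0 of 62). Leaving out each array in turn called none.

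For 3 ZT dark against 0 ZT dark, the median of all members was 0.0183 after quantile normalization, 0.0214 after cyclic loess, 0.0151 with array quality weights and 0.0006 without both arrays of largest *Actb* difference, where the cytosolic median was −0.017 and the mitochondrial one −0.0647. With each array left out these 3 medians ran from −0.0068 to 0.056, −0.0249 to 0.0469 and −0.0861 to 0.0885. The endoplasmic median of 6 ZT dark against 0 ZT dark ran from −0.0599 to 0.0587.

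For 3 ZT light against 3 ZT dark the cytosolic median was 0.053 without both *Actb* arrays and ran from −0.0805 to 0.0583 with each array left out. For 6 ZT light against 6 ZT dark the median of all members was −0.0161 (quantile), −0.0313 (loess), −0.0211 (weights) and −0.0106 (mean of a gene's probe sets), and −0.0303 to 0.0314 with each array left out. The cytosolic one was −0.0979 with the mean of probe sets and −0.079 to −0.0106 with arrays left out, and the endoplasmic one 0.0113 (quantile) and 0.0132 (loess). The mitochondrial one was −0.0002 (quantile), −0.01 (loess), −0.0274 (weights) and −0.0028 (mean of probe sets), and −0.0063 to 0.0549 with arrays left out.

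Single genes with small differences changed sign. With the mean of a gene's probe sets *Dnajc1* was 0.0263 in 3 ZT dark against 0 ZT dark, *Dnajb1* −0.0357, *Hsph1* −0.1443 and *Hsp90ab1* 0.0543 in light at 3 ZT, and *Hspa9* −0.0129 in light at 6 ZT. With array quality weights *Hspa1a* was 0.0201, *Hsp90ab1* 0.0129, *Hsp90b1* 0.1006 and *Hspd1* 0.0376 at 3 ZT, and *Hspa1a* 0.0676 and *Hspe1* −0.0239 at 6 ZT. Without both *Actb* arrays *Hspa1a* was 0.08, *Hsp90ab1* 0.095, *Hsp90b1* 0.1647 and *Hspd1* 0.0533 at 3 ZT. *Hspd1* was 0.0333 and 0.0452 at 3 ZT and −0.0146 and −0.0322 at 6 ZT after quantile and loess normalization. With each array left out, light effects at 3 ZT ran from −0.3988 to 0.0761 for *Hspa1a*, −0.3855 to 0.1097 for *Hsp90ab1*, −0.1256 to 0.2114 for *Hspa5*, −0.3982 to 0.1677 for *Hsp90b1* and −0.0979 to 0.055 for *Hspd1*. At 6 ZT they ran from −0.1539 to 0.21 for *Hspa1a*, −0.2473 to 0.03 for *Hsp90ab1* and −0.0199 to 0.0442 for *Hspd1*. The ratio rule was met in 6 ZT light by 0 to 1 members with a replica left out, the 1 being *Dnajb6* without replicate 3. The cause of these shifts was not tested. Medians near 0 also changed sign within the spread between replicas: over all settings 77 of 644 medians had the opposite sign. Without 3 ZT light replica 2 those of light at 3 ZT were 0.0202 in the endoplasmic reticulum and 0.0132 in mitochondria, and without both *Actb* arrays the mitochondrial median of 6 ZT light against 0 ZT dark was −0.069. *Hspa2* went from −0.36 to 0.14 at 3 ZT without 3 ZT light replica 2.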
